A study of Mus musculus with 7 samples.

Results

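The 36 genes described here encode the contractile and metabolic machinery of skeletal muscle, and they were followed in RNA-seq of the contused mouse spinal cord. They were chosen by gene symbol for their known role in muscle, and they are 36 of the 21965 genes in the count table. RNA came from a 5 mm segment at the epicenter of a T9 contusion made with 50 kdyn, 3 days after injury. The labels give *Bmal1*-/- for 3 mice, of which 2 were female, and WT for 4, of which 2 were female. Each mouse gave its own library, and every mouse had the same injury. The mutants carried the B6.129-*Arntl* tm1Bra/J allele of the Jackson Laboratory, a germline deletion that affects every cell of the body, muscle included. The WT mice were C57BL/6 in the labels and C57BL/6J in the study's methods, and 1 of them was a littermate of a mutant, though the labels do not say which. Litter and genotype therefore cannot be told apart.

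A muscle fiber contracts when myosin heads of the thick filament pull on actin of the thin filament. Calcium released from the sarcoplasmic reticulum binds troponin, which uncovers the actin, and calcium pumps then end the contraction. Thick and thin filaments are held in register by the Z disc and by giant scaffold proteins, and creatine kinase, glycolysis and myoglobin supply the energy. Fast and slow fibers use different genes for the same parts, so paired fast and slow forms of myosin and troponin tell the fiber types apart. The spinal cord has no skeletal muscle fibers of its own, while paraspinal muscles lie on the vertebrae that a laminectomy opens. Whether muscle of that kind entered the segments was not recorded in the labels and was not tested.

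The libraries held 38529644 to 44096737 counts. Neuron, oligodendrocyte and astrocyte markers were abundant in every library, as the tissue label gives. WT replicate 3 had the lowest sum of the 9 neuron markers, 2114 CPM (counts scaled to library size) against 3779 to 5120 CPM in the other WT libraries. It also held the highest value of 33.9% of all genes tested, so counts of called genes are also given without it. The count over the whole *Arntl* gene, the targeted gene, was higher in the libraries labelled *Bmal1*-/- (log2 fold change 0.77, edgeR adjusted p = 0.0155). The table does not divide this count between the deleted part of the gene and the rest, so it does not check the deletion, and the mutants are named by their label throughout. Below, counts are listed for replicates 1 to 3 of *Bmal1*-/- and then for replicates 1 to 4 of WT, and a fold change is the *Bmal1*-/- level relative to WT.

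Muscle genes were mostly lower in the mice labelled *Bmal1*-/-. Of the 36, 35 passed the filter on low counts, and 17 of these fell (quasi-likelihood test of edgeR, with p adjusted by Benjamini-Hochberg over 15743 genes and under 0.05), while 0 rose. Across all genes tested 0.915% fell and 0.654% rose. At an unadjusted p under 0.05, 26 members were lower and 1 was higher, *Casq1*. The share of all genes past this unadjusted threshold is not given, here or below, so such counts are descriptions without a base rate. DESeq2 called 26 lower and 0 higher, where it called 5.63% of all genes lower. The median log2 fold change was -2.14 over the 35 members and -0.0057 over all genes tested. In 25 of the 35 every library labelled *Bmal1*-/- was below every WT library, which held for 13.5% of all genes tested. The call depended on single libraries, as 6 to 21 members fell with 1 library left out and 21 without WT replicate 3. Calls over all genes tested moved as well. In the main fit 144 genes were lower, and 439 were without WT replicate 3. Without replicate 1 labelled *Bmal1*-/-, where 6 members fell, 27 genes were lower. In bulk tissue, fewer muscle cells and less RNA per cell cannot be told apart.

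**Figure D1:**
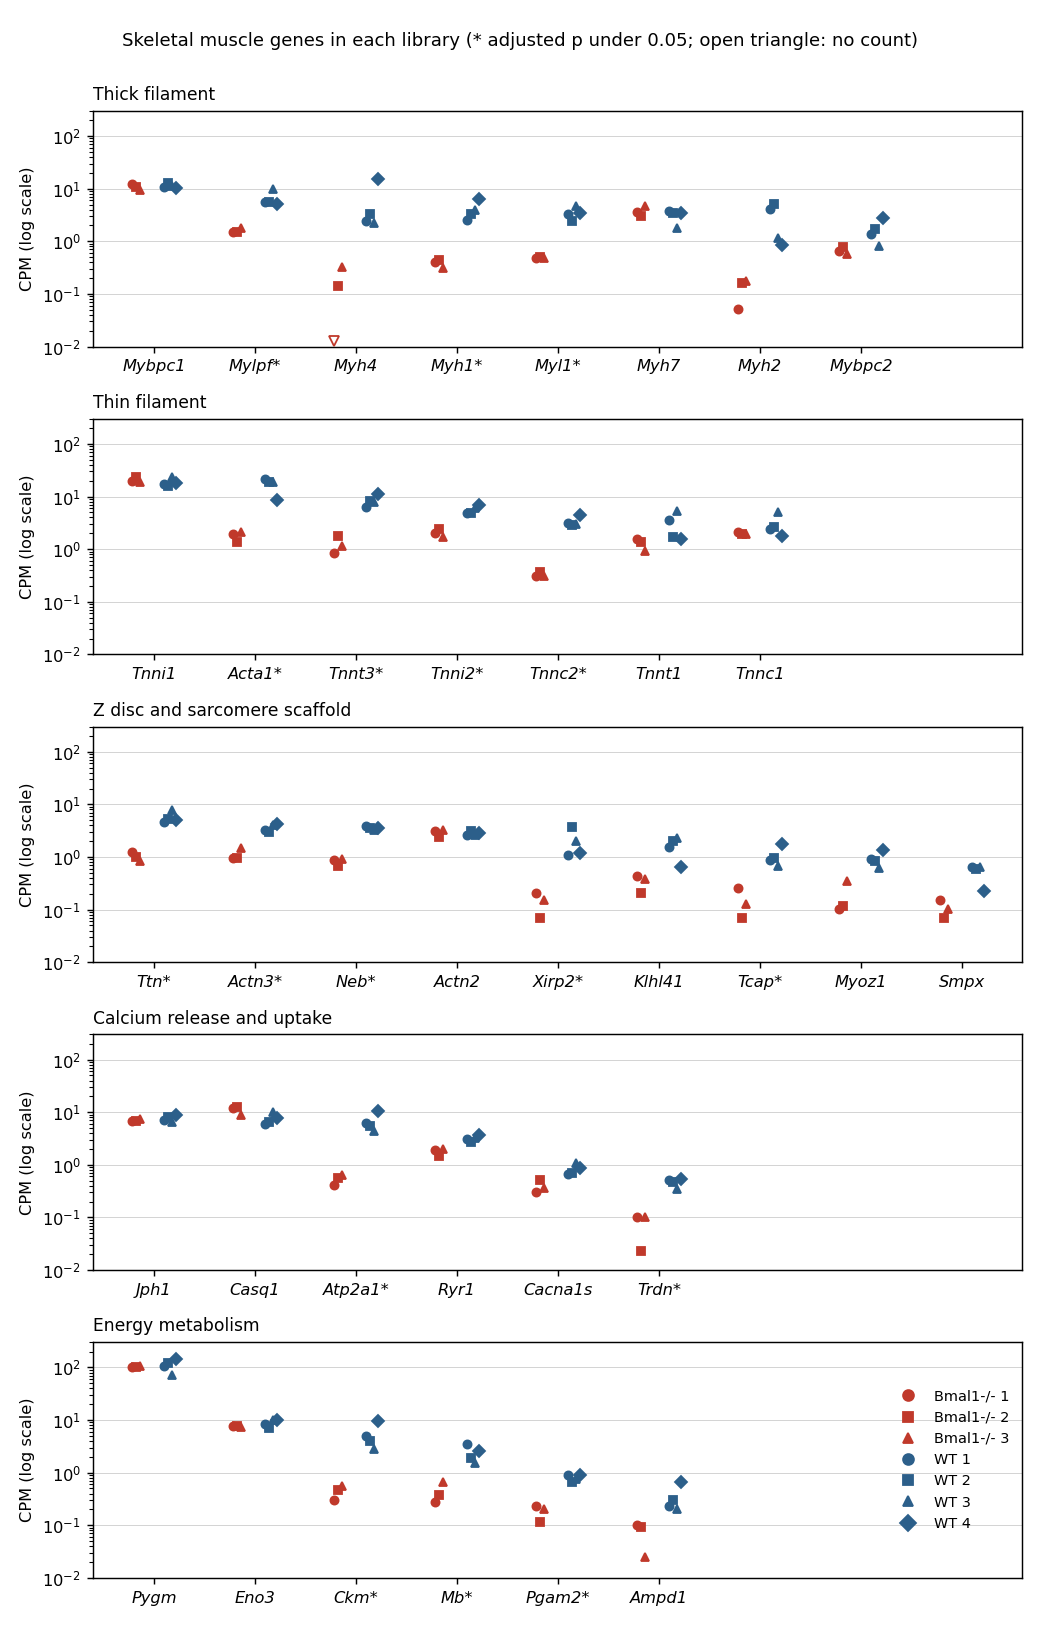
Level of each of the 36 muscle genes in each library, in CPM on a log axis, grouped by role and ordered by the WT mean; red points are the 3 libraries labelled Bmal1-/-, blue points the 4 WT libraries, and the open triangle is the 1 library with no count of Myh4. Genes with an asterisk passed the test, and their red points lie below all of their blue points.

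The counts behind these values were low, and the filter bears on which members could be tested. In all 7 libraries 26 members were above the minimum count, and 13 of these fell, with a median log2 fold change of -1.39. A further 7 members were above it in no library labelled *Bmal1*-/-, so only their WT libraries could bring them in, and 6 of them were tested. Of the 17 calls, 4 come from these 6 (*Tcap*, *Xirp2*, *Trdn* and *Pgam2*), and since they passed the filter only through the group where they are high, these 4 are no support. *Myh2* and *Smpx*, not called, passed it in the same way. All 6 did not overlap between the groups, which is no support either. The remaining 3 were above it in some but not all libraries. *Ampd1*, the muscle AMP deaminase, was the member that was not tested, with 4, 4 and 1 counts against 9, 12, 8 and 26.

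Thick filament genes fell in 3 of 8 cases. *Mylpf*, the fast regulatory light chain of myosin, had 60, 66 and 71 counts against 215, 214, 398 and 207. The groups were far apart, and WT replicate 3 was the highest library (log2 fold change -2.01, standard error (SE) 0.27, adjusted p = 0.0187). *Myl1*, the fast essential light chain, had 19, 22 and 19 counts against 128, 94, 189 and 137. Its mean was 0.492 ± 0.0162 CPM (SD, n = 3) against 3.46 ± 0.951 CPM (SD, n = 4), and the fitted log2 fold change was -2.81 (adjusted p = 0.00427 in edgeR). *Myh1*, the heavy chain of type IIX fibers, had 16, 19 and 12 counts against 98, 128, 160 and 250 (log2 fold change -3.38, adjusted p = 0.00854). These 3 genes were thus lower in every library labelled *Bmal1*-/- than in any WT library.

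The largest fitted differences of all members did not pass the test. *Myh4* (ENSMUSG00000057003, chr11:67238029-67260446, plus strand of GRCm38), the heavy chain of type IIB fibers, had 0, 6 and 13 counts against 94, 129, 88 and 597, a log2 fold change of -5.17 with an SE of 1.14 (adjusted p = 0.078 in edgeR). *Myh2*, the heavy chain of type IIA fibers, had 2, 7 and 7 counts against 163, 196, 47 and 34 (log2 fold change -4.39, SE 0.86, adjusted p = 0.0607). In neither gene did the groups overlap, but the WT libraries differed 6.85-fold among themselves for *Myh4* and 5.88-fold for *Myh2*. Without WT replicate 3 both passed. *Myh2* was above the minimum count in 0 libraries labelled *Bmal1*-/- and passed the filter only through WT, so its difference is no support. *Myh4* was above that minimum in 1 of them. *Mybpc2*, the fast form of myosin-binding protein C, had 23 to 33 counts against 33 to 111 (log2 fold change -1.32, adjusted p = 0.157).

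The slow members of the thick filament did not pass the test. *Myh7*, the heavy chain of slow fibers and of the heart, had 143, 131 and 182 counts against 147, 133, 71 and 139 (log2 fold change 0.27, SE 0.28, adjusted p = 0.548). The WT library with the fewest was replicate 3, and the groups overlapped. *Mybpc1*, the slow form of myosin-binding protein C, had 490, 462 and 379 counts against 425, 492, 460 and 403. Its fitted log2 fold change was -0.05 with an SE of 0.12 (adjusted p = 0.833), and its sign turned with 1 library left out.

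Thin filament genes fell in 4 of 7 cases, and the 4 were skeletal actin and the 3 fast troponins. *Acta1* (ENSMUSG00000031972, chr8:123891769-123894751, minus strand of GRCm38), the skeletal alpha-actin, had 75, 60 and 83 counts against 851, 748, 769 and 338. WT replicate 4 was the lowest WT library and still above every library labelled *Bmal1*-/-. The mean was 1.80 ± 0.368 CPM (SD, n = 3) against 17.2 ± 5.88 CPM (SD, n = 4), and the fitted log2 fold change was -3.25 (adjusted p = 0.00851 in edgeR). *Tnnc2* (ENSMUSG00000017300, chr2:164777161-164779967, minus strand), the fast troponin C, which binds the calcium, had 12, 16 and 12 counts against 122, 112, 120 and 174 (log2 fold change -3.34, SE 0.23, adjusted p = 0.000879). Its adjusted p was the lowest of all members. An exon of *Tnnc2* overlaps *Ube2c* on the other strand.

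The other fast troponins fell as well. *Tnnt3*, the fast troponin T that ties the complex to tropomyosin, had 33, 77 and 46 counts against 252, 321, 311 and 439 (log2 fold change -2.72, adjusted p = 0.00854 in edgeR). *Tnni2*, the fast inhibitory subunit, had 81, 106 and 66 counts against 191, 191, 240 and 275. The difference was smaller here, a log2 fold change of -1.46 (SE 0.20, adjusted p = 0.0188). Their slow counterparts did not pass the test. *Tnni1* had 776, 1009 and 756 counts against 680, 624, 944 and 711 (log2 fold change 0.15, adjusted p = 0.534). *Tnnc1* had 85, 85 and 77 counts against 96, 101, 205 and 72 (log2 fold change -0.56, adjusted p = 0.353). *Tnnt1* had 62, 60 and 37 counts against 142, 67, 214 and 61 (log2 fold change -1.23, SE 0.48, adjusted p = 0.214). In all 3 slow troponin genes the groups overlapped, and the highest *Tnnc1* and *Tnnt1* values were those of WT replicate 3.

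Z disc and scaffold genes fell in 5 of 9 cases. Of the 5, *Tcap* and *Xirp2* passed the filter only through WT, so their calls are no support. *Neb*, nebulin, which runs along the thin filament, had 35, 29 and 36 counts against 151, 137, 129 and 140. The libraries within each group were close together, and the log2 fold change was -2.10 (SE 0.17, adjusted p = 0.00172 in edgeR). *Ttn*, titin, which spans from the Z disc to the middle of the sarcomere, had 49, 44 and 33 counts against 179, 207, 307 and 200 (log2 fold change -2.45, adjusted p = 0.00528). *Actn3*, the alpha-actinin of fast fibers, had 37, 41 and 59 counts against 126, 118, 163 and 169 (log2 fold change -1.69, adjusted p = 0.0193). All 3 were lower in every library labelled *Bmal1*-/- than in any WT library.

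*Actn2*, the alpha-actinin of all fibers, differed by less than its standard error, with 2.41 to 3.22 CPM against 2.60 to 3.11 CPM (log2 fold change 0.07, SE 0.15, adjusted p = 0.792). *Xirp2*, an actin-binding repeat protein, had 8, 3 and 6 counts against 43, 142, 81 and 48 (log2 fold change -3.80, SE 0.60, adjusted p = 0.0328 in edgeR). *Tcap*, the cap of titin at the Z disc, had 10, 3 and 5 counts against 35, 38, 27 and 70 (log2 fold change -2.83, SE 0.51, adjusted p = 0.0482). The calls of both were among the least stable, since *Tcap* kept its call in 1 and *Xirp2* in 2 of the 7 fits that left out a library. *Klhl41*, a protein that stabilizes nebulin, *Smpx*, a small muscle protein, and *Myoz1*, a calcineurin-binding protein of fast fibers, did not overlap between the groups either. Their levels were 0.209 to 0.432 CPM against 0.656 to 2.30 CPM, 0.0696 to 0.152 CPM against 0.227 to 0.649 CPM and 0.102 to 0.355 CPM against 0.624 to 1.34 CPM. The log2 fold changes were -2.25, -2.26 and -2.28, with adjusted p of 0.0738, 0.0737 and 0.0721 in edgeR. *Smpx* passed the filter only through WT, so its lack of overlap is no support.

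Calcium genes fell in 2 of 6 cases. Of the 2, *Trdn* passed the filter only through WT, so its call is no support. *Atp2a1* (ENSMUSG00000030730, chr7:126445858-126463108, minus strand of GRCm38), the calcium pump of the fast sarcoplasmic reticulum, had 16, 24 and 25 counts against 242, 210, 177 and 414. The mean was 0.533 ± 0.116 CPM (SD, n = 3) against 6.61 ± 2.65 CPM (SD, n = 4), and the fitted log2 fold change was -3.62 (adjusted p = 0.00586 in edgeR). *Trdn*, triadin, which links the release channel to calsequestrin, had 4, 1 and 4 counts against 20, 18, 14 and 21 (log2 fold change -2.59, SE 0.43, adjusted p = 0.0364). Its call rested on few counts and was kept in 1 of the 7 fits that left out a library.

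Genes of the release machinery did not pass the test. *Ryr1*, the calcium release channel, had 62 to 78 counts against 106 to 149 (log2 fold change -0.85, SE 0.18, adjusted p = 0.0735). *Cacna1s*, the voltage sensor that opens it, had 12 to 22 counts against 26 to 43 (log2 fold change -1.08, adjusted p = 0.113). *Jph1*, which holds the 2 membranes of the junction together, lay at 6.71 to 7.31 CPM against 6.61 to 8.75 CPM (log2 fold change -0.14, adjusted p = 0.492). *Casq1*, the calcium store of fast fibers, had 473, 541 and 341 counts against 233, 250, 407 and 302. It was the fast member with the opposite sign, with overlapping groups and a log2 fold change of 0.56 that did not pass (SE 0.22, adjusted p = 0.213).

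Energy metabolism genes fell in 3 of the 5 tested. Of the 3, *Pgam2* passed the filter only through WT, so neither its call nor its lack of overlap is support. *Ckm* (ENSMUSG00000030399, chr7:19404776-19422841, plus strand of GRCm38), the muscle creatine kinase that rebuilds ATP, had 12, 20 and 22 counts against 191, 156, 113 and 377 (log2 fold change -3.57, SE 0.50, adjusted p = 0.0193 in edgeR). *Mb*, the oxygen store myoglobin, had 11, 16 and 26 counts against 138, 74, 62 and 103 (log2 fold change -2.45, adjusted p = 0.0376). *Pgam2*, the muscle phosphoglycerate mutase of glycolysis, had 9, 5 and 8 counts against 36, 26, 30 and 36 (log2 fold change -2.14, adjusted p = 0.0181). Their groups did not overlap, and WT replicate 4 held the most *Ckm*. *Mb* was called in 1 of the 7 fits that left out a library, and *Ckm* and *Pgam2* in 3 each. Exons of *Ckm* and *Mb* overlap genes on the other strand, and so do those of the called members *Atp2a1*, *Xirp2*, *Myh1*, *Ttn* and *Neb*.

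The abundant members of this group did not pass the test. *Pygm*, the muscle form of glycogen phosphorylase, which astrocytes also make, had 4035, 4419 and 4268 counts against 4246, 4807, 2875 and 5803. Per kilobase of exon it was the most abundant of the 36 genes in both genotypes, with a log2 fold change near 0 (-0.11, SE 0.21, adjusted p = 0.772). *Eno3*, the muscle enolase, lay at 7.49 to 7.85 CPM against 7.12 to 10.2 CPM (log2 fold change -0.22, adjusted p = 0.366).

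**Figure D2:**
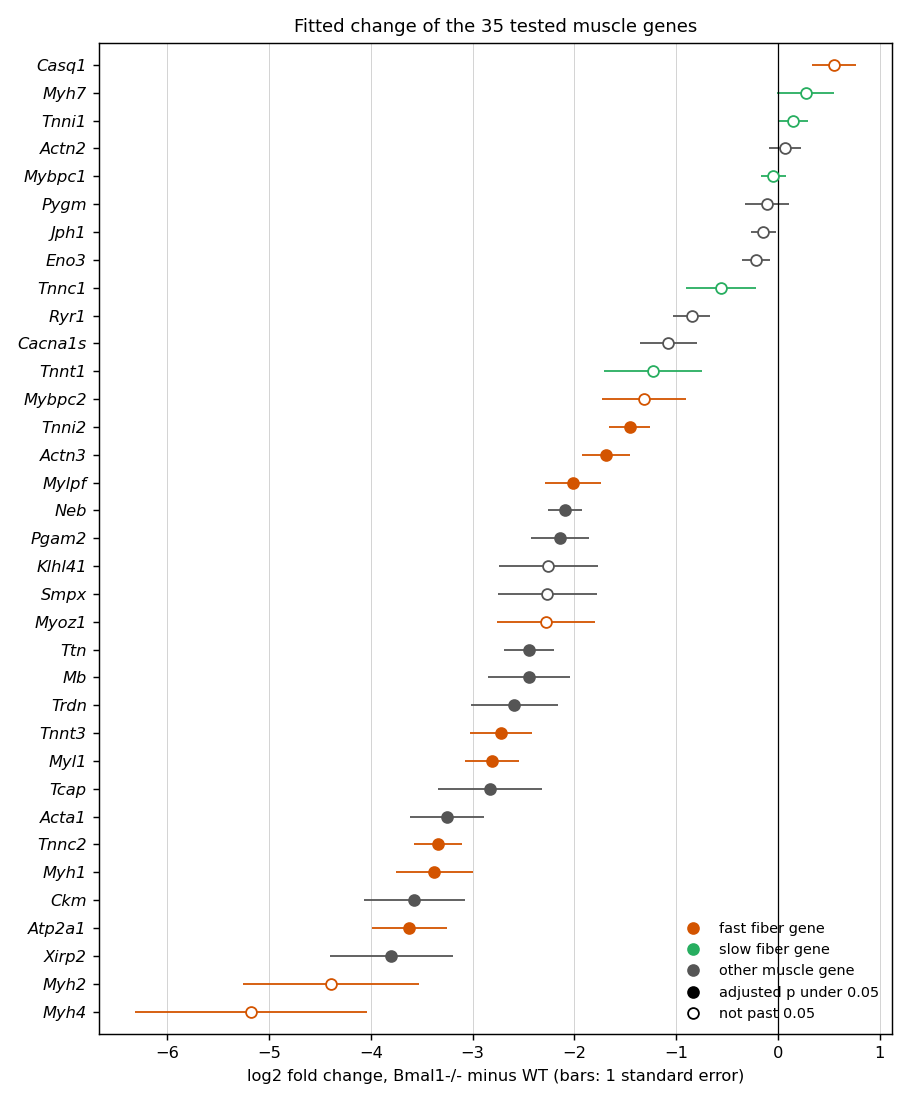
Fitted log2 fold change of the 35 tested muscle genes, the libraries labelled Bmal1-/- relative to WT, with 1 standard error on each side; orange marks fast fiber genes, green slow fiber genes and gray other muscle genes, and filled points passed the test. The 17 filled points lie between -1.46 and -3.80, and the 5 slow fiber genes lie between -1.23 and 0.27.

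Fast and slow fiber genes were set side by side. Among the 13 fast members 8 fell and 12 were lower without overlap, with a median log2 fold change of -2.72. Of all genes tested 0.915% fell and 13.5% were lower without overlap. Of the 12 fast members without overlap, *Myh2* passed the filter only through WT. Among the 5 slow members 0 fell in edgeR or DESeq2, 1 was lower at an unadjusted p under 0.05 (*Tnnt1*), and the median log2 fold change was -0.05. Summed over the fast members, the level was 18.0 to 22.4 CPM in the libraries labelled *Bmal1*-/- and 49.8 to 79.7 CPM in WT. On average most of the first sum was *Casq1*, and without it the other 12 genes came to 8.96 ± 1.05 CPM (SD, n = 3) against 52.8 ± 13.01 CPM (SD, n = 4), a division made after the values were seen. The slow members summed to 36.3 to 40.6 CPM against 34.95 to 47.3 CPM, so that these ranges overlapped. The difference between the fast and the slow lists was not itself tested.

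Ratios within a library do not depend on how deeply it was sequenced. The ratio of *Tnnc2* to *Tnnc1* counts was 0.141, 0.188 and 0.156 in the libraries labelled *Bmal1*-/- and 1.27, 1.11, 0.585 and 2.42 in WT. For *Tnni2* to *Tnni1* it was 0.104, 0.105 and 0.0873 against 0.281, 0.306, 0.254 and 0.387. For *Tnnt3* to *Tnnt1* it was 0.532, 1.28 and 1.24 against 1.77, 4.79, 1.45 and 7.20. Every fast to slow ratio was thus lower in the libraries labelled *Bmal1*-/-, although the gap was narrow for troponin T. It was narrower still for *Mybpc2* to *Mybpc1*, with at most 0.0714 against at least 0.0717. The ratios of *Myh1*, *Myh2* and *Myh4* to *Myh7* reached 0.145, 0.0534 and 0.0714 in the libraries labelled *Bmal1*-/- and were at least 0.667, 0.245 and 0.639 in WT. In the libraries labelled *Bmal1*-/-, *Tnni1* had 776, 1009 and 756 counts and *Mybpc1* 490, 462 and 379. *Acta1* had 75, 60 and 83 there. Whether the slow counts came from muscle fibers was not tested, so the ratios need not be those of fiber types.

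**Figure D3:**
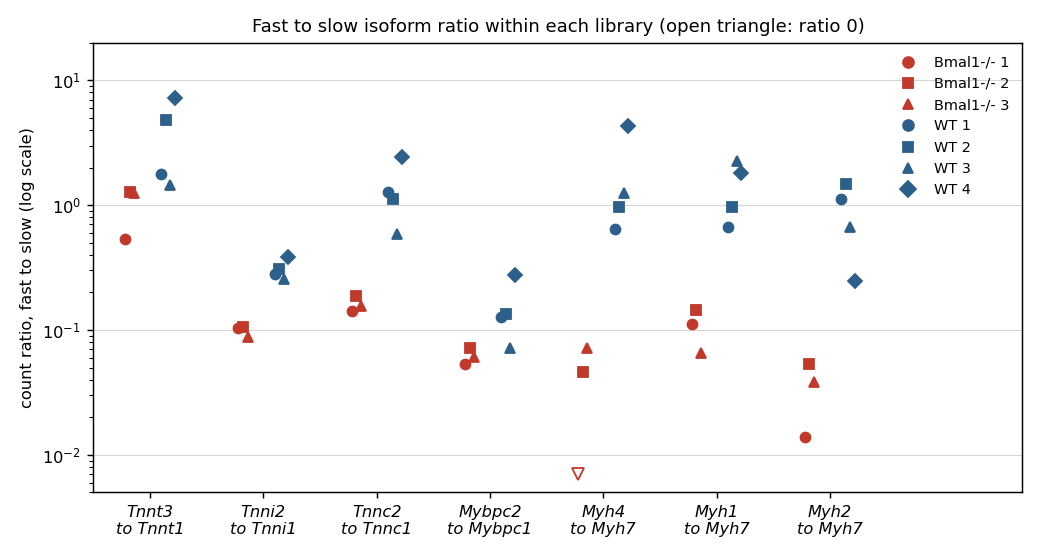
Ratio of the fast to the slow form of each pair within each library, as a ratio of counts on a log axis; red points are the 3 libraries labelled Bmal1-/-, blue points the 4 WT libraries, and the open triangle is the library with no count of Myh4. In all 7 pairs the red points lie below the blue points, by the least for Mybpc2 to Mybpc1 (0.0714 against 0.0717).

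The WT libraries did not share 1 mix of fast myosins. Per kilobase of exon, *Myh1*, *Myh2* and *Myh4* together came to 0.0711, 0.115 and 0.128 CPM in the libraries labelled *Bmal1*-/- and to 1.37, 1.78, 1.16 and 3.61 CPM in WT. *Myh4* made up 29.0%, 31.1%, 31.5% and 69.2% of that sum in WT replicates 1 to 4. *Myh2* made up 42.4%, 39.8%, 14.2% and 3.32%. Replicates 1 and 2 thus had a mix of all 3 fast chains, replicate 3 mostly *Myh1*, and replicate 4 mostly *Myh4*. In the libraries labelled *Bmal1*-/- the 3 fast chains had 18, 32 and 32 counts in all, too few for a composition to be read. These genes are close copies, and between 18.9% and 25.4% of the 50-base windows of their transcripts also occur in another gene, mostly each other, so reads may be divided unevenly among them.

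**Figure D4:**
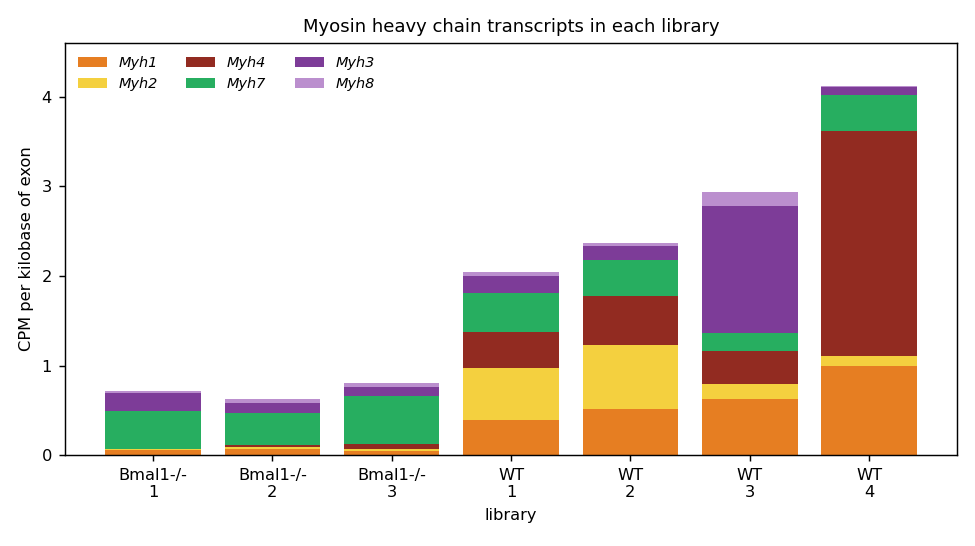
Myosin heavy chain transcripts in each library, in CPM per kilobase of exon, stacked by gene. The 3 fast chains Myh1, Myh2 and Myh4 sum to 0.0711 to 0.128 CPM per kilobase in the libraries labelled Bmal1-/- and to 1.16 to 3.61 in WT, and the embryonic chain Myh3 stands out in WT replicate 3.

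The WT library with the most RNA differed between members. WT replicate 4 had the highest value of 15 of the 35 tested members, where 7.46% of all genes tested were highest in it. WT replicate 3 had the highest value of 10 members, or 28.6%, where 33.9% of all genes tested were highest in it. WT replicates 1 and 2 had the highest value of 4 and 3 members, and the libraries labelled *Bmal1*-/- of 3. *Acta1* and *Ckm* went apart within WT, with *Acta1* counts 4.46, 4.79, 6.81 and 0.897 times those of *Ckm*. In the libraries labelled *Bmal1*-/- this ratio was 6.25, 3.00 and 3.77, within the range of WT.

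Some genes of immature and regenerating muscle were high in WT replicate 3. Of 12 such genes 7 were tested and 0 fell in edgeR, with 1 lower at an unadjusted p under 0.05 and 1 called by DESeq2. Their summed level was 30.2 CPM in WT replicate 3, 3.40 to 9.92 CPM in the other WT libraries and 4.25 to 6.53 CPM in the libraries labelled *Bmal1*-/-. *Myog*, a transcription factor of differentiating myoblasts, had 34, 16 and 18 counts against 59, 31, 220 and 11. *Myh3*, the embryonic myosin heavy chain, had 48, 30 and 23 counts against 44, 38, 345 and 22. Both were highest in WT replicate 3 and overlapped between the genotypes, and *Actc1*, the cardiac and embryonic actin, had 188 counts there and at most 34 elsewhere. Of the 12 genes 8 were highest in WT replicate 3, and the other 4, *Pax7*, *Myf5*, *Myf6* and *Cdh15*, were highest in WT replicate 1. Of all genes tested 33.9% were highest in WT replicate 3 and 9.34% in WT replicate 1.

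Of other muscle genes, some passed the test. Across 6 further lists 68 of 80 genes were tested, 3 fell and 0 rose, with a median log2 fold change of -0.55 and 29 genes lower and 4 higher at an unadjusted p under 0.05. DESeq2 called 20 of them lower and 2 higher. Of all genes tested, edgeR called 0.915% lower and DESeq2 5.63%. Of the 68, 27 were lower in every library labelled *Bmal1*-/- than in any WT library, which held for 13.5% of all genes tested. A further 4 were higher without overlap, against 13.4%. Among sarcomere and costamere genes 2 of 21 fell. They were *Des*, the intermediate filament desmin, with 207, 201 and 169 counts against 694, 593, 1006 and 414 (log2 fold change -1.85, adjusted p = 0.0312 in edgeR), and *Tmod4*, a thin filament cap, with 4 to 6 counts against 15 to 20 (log2 fold change -1.78, adjusted p = 0.0272). Among metabolic genes 1 of 14 fell, *Ckmt2*, the mitochondrial creatine kinase of muscle, with 3, 1 and 2 counts against 24, 12, 11 and 25 (log2 fold change -3.13, adjusted p = 0.0433). *Tmod4* and *Ckmt2* were above the minimum count in 0 libraries labelled *Bmal1*-/- and passed the filter only through WT. Desmin is also made by vessel wall cells. Of the further calcium genes 0 of 12 fell, of slow fiber genes 0 of 10 and of neuromuscular junction genes 0 of 4. At an unadjusted p under 0.05 these 3 lists had 7, 2 and 0 genes lower, and DESeq2 called 5, 2 and 0 of them lower. Whether this share differs from that of the 36 was not tested.

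Some markers of other tissues around the cord were lower in the same libraries. *Scn10a*, *Avil* and *Trpv1*, genes of sensory ganglion neurons, summed to 1.18 to 1.32 CPM in the libraries labelled *Bmal1*-/- and to 277, 134, 8.09 and 2.98 CPM in WT. All 6 ganglion markers together came to 141 to 147 CPM against 88.8 to 762 CPM, overlapped, and 0 of 6 fell, with 4 lower at an unadjusted p under 0.05 and 3 called lower by DESeq2. The 5 Schwann cell markers used here summed to 171 to 228 CPM against 262 to 402 CPM. All 5 were lower without overlap, which held for 13.5% of all genes tested. In edgeR 2 of the 5 fell, *Egr2* and *Cdh19*, where 0.915% of all genes tested fell. DESeq2 called 5 of the 5 lower, where it called 5.63% of all genes lower. At an unadjusted p under 0.05 in edgeR 5 of the 5 were lower. The ganglion and Schwann cell sums were highest in WT replicates 1 and 2. Among WT libraries both were lowest in replicate 4, which had the highest fast muscle sum. The called marker *Cdh19* went the other way, with its highest level, 38.96 CPM, in WT replicate 4.

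Some of the vessel, blood and connective tissue markers passed the test. Of all genes tested, 0.915% were called lower in edgeR and 5.63% in DESeq2, and 13.5% were lower without overlap. DESeq2 called 3 of the 7 smooth muscle and 6 of the 6 red cell markers lower. It also called 2 of the 8 fibroblast and 3 of the 5 endothelial markers lower. The 7 smooth muscle markers summed to 110 to 156 CPM against 359 to 539 CPM, and 2 fell, *Tagln* and *Smtn*. The 6 red cell markers summed to 26.3 to 60.4 CPM against 150 to 455 CPM, with all 6 lower without overlap and 1 called, *Hbb-bt*. The 8 fibroblast markers summed to 506, 2382 and 425 CPM against 1272 to 2023 CPM, and 1 of them fell, *Fmod*. The fibroblast sum was highest in replicate 2 labelled *Bmal1*-/-, mostly through *Col1a1*, *Col1a2* and *Col3a1* at 640.5, 627.5 and 759.0 CPM. *Pdgfra* was also highest there, while *Dcn*, *Lum*, *Postn* and *Fmod* were highest in a WT library. *Lum* and *Fmod* were lower in every library labelled *Bmal1*-/- than in any WT library. The 36 muscle genes summed to 187.9, 189.0 and 189.1 CPM in the libraries of that label. Of these sums *Pygm*, which astrocytes also make, gave 102.6, 102.6 and 108.3 CPM. The 17 members called lower summed to 12.38, 12.81 and 13.53 CPM there. In 5 endothelial markers 1 fell, *Cdh5*. The part of these tissues in the muscle result was not tested.

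Heart, fat, tendon and bone markers had 0 called genes in edgeR, and 0 were lower in DESeq2 or at an unadjusted p under 0.05, while 1 fat gene was higher in both (*Plin4*). The heart genes *Myh6*, *Myl7* and *Nppa* had at most 8 counts in any library, and the fat hormone *Lep* had 0 in all. Other genes of these lists were counted, with 77 to 257 counts of *Tnnt2*, 77 to 216 of *Myl4* and 449 to 2895 of *Plin4*. Neuron markers ran the other way, with 9 of 9 fitted higher and 0 called in edgeR, 1 called by DESeq2 and 1 higher at an unadjusted p under 0.05.

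**Figure D5:**
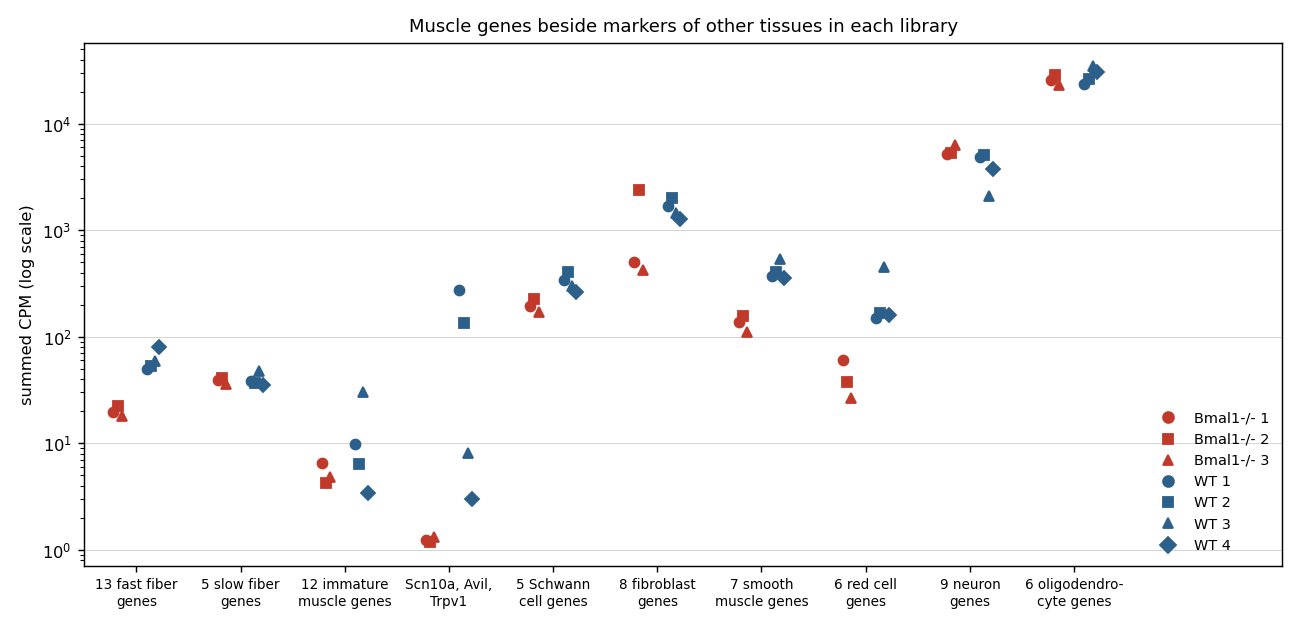
Summed level of the fast and slow fiber genes, of immature muscle genes and of markers of other tissues in each library, in CPM on a log axis; red points are the 3 libraries labelled Bmal1-/- and blue points the 4 WT libraries. The fast fiber genes separate the genotypes (18.0 to 22.4 against 49.8 to 79.7 CPM), and so do the Schwann cell, smooth muscle and red cell genes, while the slow fiber genes do not.

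Of the 36 genes 8 lie on chromosome 7, which also carries *Arntl* (113207465 to 113314126 in GRCm38). Of the 8, 5 fell, and the nearest to *Arntl* were *Atp2a1* and *Mylpf*, 13.1 and 13.9 Mb away. On the other chromosomes 12 of 27 tested members fell, with a median log2 fold change of -2.25. Among these 12 are *Tcap*, *Xirp2*, *Trdn* and *Pgam2*, which passed the filter only through WT. Of the 15 members that overlap no other gene in the annotation, 6 fell, with a median of -2.01. Of these 6, *Mylpf* and *Tnni2* lie on chromosome 7, and *Tcap* and *Pgam2* passed the filter only through WT. Whether nearness to *Arntl* or an overlapping gene bears on the calls was not tested.

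The sequence before the start of each gene was searched for motifs, since muscle genes share binding sequences of muscle transcription factors and BMAL1 is a DNA-binding clock protein. In the RefSeq promoter set (GRCm38.p6), 27 of the 36 members had a window, and the 250 bases before the start were read on both strands. CAGCTG, an E box that myogenic factors bind, occurred in 14 of the 27 members, 51.9%, and in 14.7% of 27025 genes. CACGTG, the E box that BMAL1 and CLOCK bind, occurred in 1 member, 3.70%, and in 6.86% of all genes. The MEF2 box, bound by the MEF2 factors of muscle, occurred in 6 members, 22.2%, against 3.42%, and the CArG box, bound by serum response factor, in 2, 7.41%, against 1.62%. Both 6-letter motifs read the same on the 2 strands, and no match in a member overlapped that of another motif. These are letters in a window, not measured sites.

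The motifs occurred in members that fell and in members that did not. CAGCTG was in 7 of the 11 members that fell and have a window, and in 7 of the 16 others, *Pygm*, *Tnni1* and *Mybpc1* among them, which did not pass the test. The MEF2 box was in 4 of the 11 and 2 of the 16. CACGTG was in 0 of the 11 and in 1 of the 16, *Actn2*. Differences between these shares were not tested. The stretches below show the windows of *Acta1*, *Atp2a1* and *Pgam2*, which fell, and of *Myh4* and *Actn2*, which did not pass the test. Capitals mark the motifs, and each stretch is given 5′ to 3′ on the strand of the gene. They lie at chr8:123894824-123895011 (minus strand), chr7:126463108-126463143 (minus), chr11:67237615-67237765 (plus), chr11:5803852-5803936 (minus) and chr13:12340760-12340831 (minus).
Acta1: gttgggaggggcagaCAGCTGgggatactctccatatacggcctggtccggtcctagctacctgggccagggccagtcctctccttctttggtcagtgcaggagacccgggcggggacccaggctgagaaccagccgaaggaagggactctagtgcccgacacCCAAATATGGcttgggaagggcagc
Atp2a1: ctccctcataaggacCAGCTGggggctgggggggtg
Myh4: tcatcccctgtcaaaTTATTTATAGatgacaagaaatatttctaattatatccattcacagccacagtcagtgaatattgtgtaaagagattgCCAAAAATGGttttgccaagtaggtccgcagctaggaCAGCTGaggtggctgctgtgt
Pgam2: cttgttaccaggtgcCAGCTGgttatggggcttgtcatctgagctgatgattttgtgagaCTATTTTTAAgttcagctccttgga
Actn2: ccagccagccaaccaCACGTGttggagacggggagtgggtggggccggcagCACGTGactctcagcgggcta

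In *Acta1* the capitals are CAGCTG, starting 221 bases before the start, and a CArG box at 73 bases. *Myh4* has a MEF2 box at 182, a CArG box at 104 and CAGCTG at 67 bases. In *Pgam2*, CAGCTG at 125 bases is followed by a MEF2 box at 80, and *Atp2a1* has CAGCTG at 55 bases. *Actn2* has CACGTG at 84 and at 48 bases and no CAGCTG in this window.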

How the data were processed

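Poly-A RNA of 7 mice was prepared as stranded libraries. The authors mapped reads with Tophat2 (GRCm38), used HTSeq 0.10.0 for counting, and deposited the raw counts per gene, which are whole numbers and not normalized. The annotation release and the strand setting of the counting are not given in the sources used here, so genes that overlap another gene are uncertain.

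Counts were filtered with filterByExpr (about 10 counts at the median library size in at least 3 libraries), scaled by TMM factors and compared between genotypes by the quasi-likelihood test of edgeR, with Benjamini-Hochberg adjusted p under 0.05 as the threshold (edgeR 4.0.16, limma 3.58.1, DESeq2 1.42.0, R 4.3.3; plots with matplotlib 3.10.9 and python 3.11.15). CPM are counts scaled by library size and TMM factor. The precision is set by the spread between mice and, for members under about 10 counts, by counting. Methods were checked on simulated data.

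The members and lists were chosen with earlier results of these data known, so list counts and medians are descriptions without a test. Members called, the fast and slow troponins, *Myh1*, *Myh2*, *Myh4*, *Myh7* and the 4 members with the highest mean CPM were named with the value in every library, other members with ranges. Of other lists at most 4 called genes were named by rule; *Myog*, *Myh3*, *Actc1* and the marker genes were chosen after their values were seen. Positions, exon lengths and overlaps came from GENCODE release M21, which matched 21939 of 21965 identifiers. *Aldoa* matched 2 rows and was left out. 1 gene of the Schwann cell marker list is not reported here. Replicate numbers did not pair the mice. Alternatives were DESeq2, limma-voom, RLE and upper-quartile factors, a filter at 1 count in all, a filter on a mean of 10, a sex term, a replicate block, members off chromosome 7 or without overlaps, and each library left out in turn.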

Additional observations from a re-analysis of the deposited data

Results flagged for a closer look

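In 44 groups of WT values (36 members and 8 ratios), 1 library stood apart from the other 3 in 6, by the gap to the nearest library as a share of the range; chance alone gives about 1 in 20 groups. WT replicate 4 was the library in 4 of them. *Myh4* was high there, at 15.1 CPM against 2.20 to 3.32 CPM (share 0.913), as was its ratio to *Myh7*, 4.29 against 0.639 to 1.24 (share 0.836). *Tnnc2* was high at 4.39 CPM against 2.88 to 3.11 CPM (share 0.846), and *Smpx* was low at 0.227 CPM against 0.591 to 0.649 CPM (share 0.863). In WT replicate 3 *Mylpf* was high, at 9.94 CPM against 5.22 to 5.501 CPM (share 0.940), and *Myh7* was low, at 1.77 CPM against 3.42 to 3.75 CPM (share 0.833).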

How the results depend on the processing

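The 17 members called lower became 26 with DESeq2, where 5.63% of all genes tested fell, and 6 when only members without an overlapping gene were counted. With the replicate block 0 of the 17 and 0 of 15743 genes passed. At an unadjusted p under 0.05, 26 members were lower, a count given without its share over all genes. The same-numbered mice correlated at -0.174, 0.183 and -0.295, so the numbers are no pairing. With each library left out the count was 6 to 21, and 5 of the 17 (*Myl1*, *Tnnc2*, *Ttn*, *Neb* and *Atp2a1*) kept their call in all 7 fits. *Acta1* lost it without replicate 1, *Tnnt3* without replicate 3 and *Myh1* without either of these, all labelled *Bmal1*-/-, and the other 9 lost it in 3 to 6 fits. The count was 6, 10 and 7 without replicates 1, 2 and 3 labelled *Bmal1*-/-, and 8 without WT replicate 1. Over all genes tested, 27, 133, 30 and 40 were lower in the same fits, against 144 in the main fit. The members' median log2 fold change was -2.20 to -1.98 with a library left out, -2.01 for members without overlaps and -2.25 off chromosome 7. The fast members' median was -2.14 without overlaps and -3.07 off chromosome 7, and the slow members' was -0.54 without overlaps. That last value rests on *Tnnt1* (-1.23) and *Tnni1* (0.15) alone, the only slow members that overlap no other gene.

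The other normalizations and filters gave 17, limma-voom 15 and the sex covariate 14, and 0 members were called higher under any alternative. No called member changed sign. Uncalled members near 0 did: *Mybpc1* ran from -0.148 to 0.0361 with a library left out and was positive at 0.0361 and 0.00797 without replicate 3 labelled *Bmal1*-/- and WT replicate 2, *Pygm* was 0.0806 with the replicate block, -0.272 to 0.0456 with a library left out and positive without WT replicate 4, and *Actn2* ran from -0.00289 to 0.196, negative without replicate 3 labelled *Bmal1*-/-. The cause of these moves was not tested. Depth limits members with few counts, such as *Trdn*, *Smpx* and *Xirp2*.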
